A study of Danio rerio with 24 samples.

Results

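Brains of zebrafish at 4 months of age were compared with whole larvae at 5 days post fertilization (dpf), all from fish that received only the solvent DMSO as embryos. The comparison rests on 6 of the 24 RNA sequencing libraries of the series, 3 of adult brain and 3 of whole larva, taken by their labels. It asks which genes mark the adult brain over the whole larva, and which mark the larva over the brain.

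The series followed fish that had been given DMSO or PCB126, a chlorinated pollutant that binds the aryl hydrocarbon receptor, in the embryo medium. Samples were whole embryos at 48 hours post fertilization, whole larvae at 5 dpf and brains at 4 months, with 3 libraries in each of the groups. After exposure the fish lived in clean system water with equal light and dark phases. Larvae exposed to 0.3 and 1.2 nM PCB126 and brains of fish exposed to the same doses are used here to repeat the comparison in other libraries and to test whether it differed with dose. Larval RNA was purified with a BioRad aurum column kit and brain RNA by the method of Peña-Llopis and Brugarolas. Tissue, age and RNA purification therefore changed together and cannot be told apart in these 6 libraries. A whole larva also contains its own brain. The sources used here do not give the strain, the sex, the number of fish in a library or the hour of sampling, and the study's text calls the 3 libraries of a group biological replicates.

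As background, the brain of a larval zebrafish already holds working neurons, but it is small beside the muscle, skin, gut, liver and eyes of the animal. Myelin, the membrane that oligodendrocytes wrap around axons, forms over weeks, and the adult fish brain keeps radial glia, cells that line the ventricles, take up glutamate and can divide to give new neurons. Zebrafish also carry many genes as a pair or a larger family of copies left by a whole-genome duplication, and the copies are often used by different tissues or ages.

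The libraries held 12480715 to 14932821 reads in genes for larvae and 19498374 to 23022236 for brains. Log2 levels of the larval libraries correlated at 0.988 to 0.991 with each other, those of the brain libraries at 0.971 to 0.983, and larva with brain at 0.627 to 0.66, as a description across genes. No pair of libraries agreed within counting noise. Brain library 3 stood apart in genes of skeletal muscle, the pituitary, cartilage and bone, and brain library 2 in genes of photoreceptors. Of 5 skeletal muscle markers, the summed level was 42.5, 24.9 and 354 CPM (read counts scaled to a common, adjusted library size) in brain libraries 1, 2 and 3. Of 7 pituitary markers it was 17.9, 23.4 and 365 CPM in the same order, and of 7 cartilage and bone markers 69.7, 47.1 and 225 CPM. Of 7 photoreceptor markers it was 1.52, 95.4 and 2.15 CPM. Counts for the muscle, heart, skeleton and photoreceptor lists and for the pituitary markers are given with and without the library concerned. Among single genes this was done for some only, and the part of neighbouring tissue in the other results was not tested.

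Most genes differed. Of 21546 genes tested, 7944 were higher in brain and 8365 were lower at an adjusted p under 0.05 by edgeR's quasi-likelihood test with Benjamini-Hochberg adjustment, which is 36.9% and 38.8% of the genes tested and 75.7% in both directions. Levels of the 3 brain libraries did not overlap those of the 3 larval libraries for 79.9% of the genes. A gene is said here to mark a side only where its fold was tested to exceed 4, and 592 genes (2.75%) marked the brain while 3143 (14.6%) marked the larva. Without brain library 3 the marks numbered 659 and 3441, and without brain library 2 they numbered 556 and 3067. The shares of all genes given here are the background for each count of list members below. The median log2 change of all genes tested was -0.00212, a value that the scaling itself holds near 0. Of the genes tested, 146 had no read in brain and 9 had none in larvae. Such genes passed the count filter only through the other group, so their direction was fixed before the test. They are included in the counts of the lists. In each sentence on a gene, libraries 1, 2 and 3 are given in that order or as their range, and a log2 change is brain minus larva ± its standard error. In bulk tissue, fewer cells of a type and less RNA per cell cannot be told apart.

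**Figure D1:**
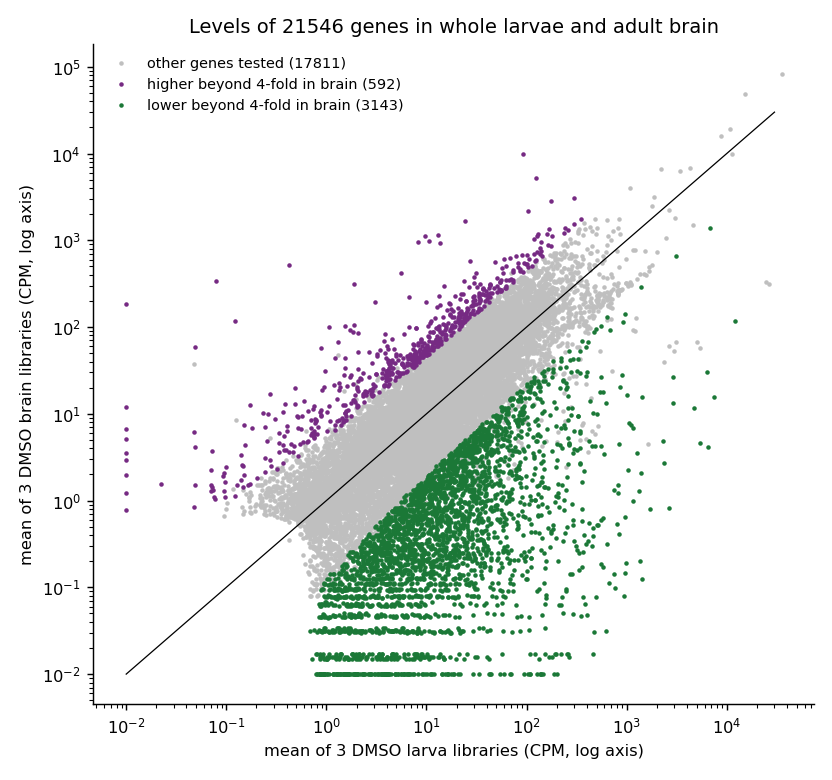
Mean level of each gene tested in 3 DMSO larval libraries (horizontal axis, CPM, log scale) and in 3 DMSO adult brain libraries (vertical axis, CPM, log scale), with means under 0.01 drawn at 0.01. The 592 genes that exceed a 4-fold change toward brain and the 3143 toward larva are coloured, and the larval marks reach farther from the diagonal than the brain marks.

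Markers of neurons and oligodendrocytes and most of those of radial glia were higher in the libraries labelled brain. Markers of lens, liver, exocrine pancreas, epidermis, heart and skeletal muscle were higher in those labelled larva, as were most of photoreceptors and of cartilage and bone. Of 2 blood markers tested, 1 was higher in brain and 0 lower, and of 6 pituitary markers 1 was higher and 0 lower. Without brain library 3, 2 of the 6 pituitary markers were higher and 4 were lower, so these counts rested on that library. Of 2 pineal markers, 0 were higher and 1 was lower. Of 7 neuron markers, 7 were higher in brain, and their summed level went from 1082 to 1109 CPM in larvae to 4893 to 5613 CPM in brain. Of 5 oligodendrocyte markers, 5 were higher, at 159 to 189 CPM in larvae and 9360 to 14020 CPM in brain. Radial glia markers summed to 897 to 988 CPM in larvae and 3125 to 3683 CPM in brain, with 5 higher and 2 lower of 7 tested. The 4 markers of each of lens, liver, exocrine pancreas and epidermis were all lower in brain by more than 4-fold. Their sums in brain were 0.134 to 0.304 CPM for lens, 1.52 to 2.99 CPM for exocrine pancreas, 4.71 to 10.07 CPM for liver and 51.9 to 102 CPM for epidermis, against 366 to 393, 2128 to 2582, 2411 to 2739 and 7699 to 8210 CPM in larvae. The lens marker MIP (ENSDARG00000013963) had no read in any brain library. The 3 heart markers summed to 0.669 to 4.12 CPM in brain and 154 to 190 CPM in larvae. Markers of microglia, the brain's resident macrophages, did not move together, with 4 higher and 2 lower of 6 tested. Their sum was lower in brain, at 636 to 754 CPM in larvae and 192 to 265 CPM in brain. A single gene, apoeb, made up most of that sum in every library, so the sum does not stand for the other microglia markers.

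**Figure D2:**
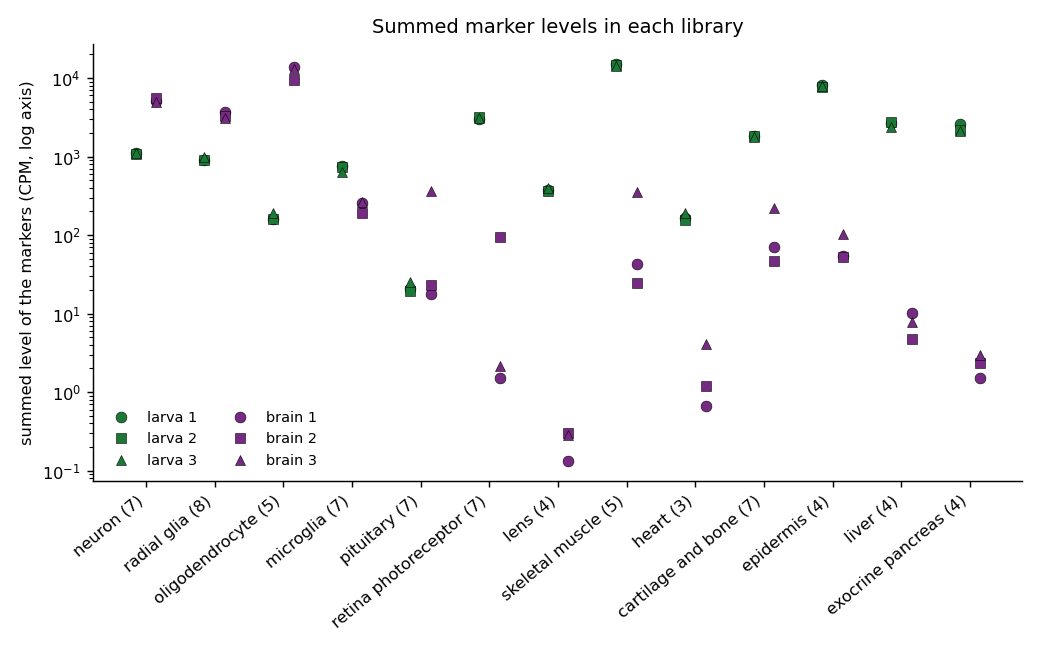
Summed level of the marker genes of each cell type shown (CPM, log scale), with a point for each of the 3 DMSO larval and 3 DMSO brain libraries. Blood and pineal markers are not drawn. Neuron, radial glia and oligodendrocyte sums lie higher in brain, the sums of lens, liver, pancreas, muscle and epidermis lie lower, and single brain libraries stand away from the other brain libraries for pituitary, muscle and photoreceptor markers.

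Myelin genes included several of the largest changes toward brain. Of 32 tested genes of myelin and oligodendrocytes, 23 were higher in brain and 6 lower, 11 of them higher by more than 4-fold, and the median log2 change was 1.497. Of all genes tested, 36.9% were higher and 2.75% were higher by more than 4-fold. The gene mbpa, for myelin basic protein, which holds the membrane layers of myelin together, stood at 81.3, 84.7 and 109 CPM in larvae and at 11203, 7894 and 10557 CPM in brain. Every brain library was far above every larval one, a log2 change of 6.75 ± 0.20 (adjusted p = 1.62e-08). Library 2 was the lowest of the brain libraries.

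Other genes of the same cells rose with them. The myelin-associated glycoprotein mag, which faces the axon, rose from 30.2, 30.9 and 31.6 CPM to 503, 347 and 409 CPM (log2 change 3.76 ± 0.14). The tight junction protein of myelin cldnk rose from 10.33, 10.7 and 11.3 CPM to 145, 88.5 and 104 CPM. OLIG2, a transcription factor that specifies oligodendrocytes, rose by less, from 6.62 to 7.31 CPM to 47.0 to 51.2 CPM (log2 change 2.83 ± 0.09). Among the genes with the largest changes toward brain were also cd59a, a membrane inhibitor of complement, with 11.7, 12.1 and 15.6 CPM in larvae and 1356, 886 and 1243 CPM in brain, and dhrs12la, a short-chain dehydrogenase gene, with 8.57, 7.39 and 9.02 CPM and 1075, 775 and 1032 CPM. Both had brain library 2 as their lowest brain library, as mbpa did. So did genes of other lists, such as GJA1 and cd74a, and a link of cd59a or dhrs12la to myelin was not tested. The exceptions included the peripheral myelin gene copies pmp22a, at 67.8, 67.0 and 79.9 CPM in larvae and 2.94, 2.18 and 4.96 CPM in brain, and PMP22, at 141 to 154 CPM and 17.9 to 36.4 CPM. These genes encode a protein known from the Schwann cell myelin of peripheral nerves.

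Genes of radial glia and astroglia were also mostly higher in brain. Of 34 tested, 26 were higher and 5 lower, with 10 higher by more than 4-fold and a median log2 change of 1.63. The gene epd for ependymin, which is not in the list, a secreted glycoprotein of fish brain fluid, stood at 122.7, 127 and 125 CPM in larvae and at 6134, 4373 and 5151 CPM in brain, a log2 change of 5.39 ± 0.15. S100B, a calcium-binding protein of glia, went from 15.4, 12.0 and 13.7 CPM to 955, 806 and 1003 CPM, and the gap junction gene GJA1 from 119.9, 116 and 124 CPM to 1047, 992 and 1089 CPM. In all 3 genes each brain library exceeded each larval library by several times. GFAP, the intermediate filament most often used to mark these cells, barely differed, at 154, 150.0 and 168 CPM in larvae and 206, 187 and 212 CPM in brain. The groups did not overlap and the change was called, but it was only 0.36 ± 0.08 on the log2 scale (adjusted p = 0.00334). The fatty acid binding protein FABP7 (ENSDARG00000007697), also a radial glia marker, lay between them, from 146 to 158 CPM to 483 to 614 CPM.

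Copies of the glial transporter and enzyme genes moved apart. SLC1A2 (ENSDARG00000102453), a transporter that clears glutamate from synapses, rose from 123.2, 134 and 120.3 CPM to 1345, 1234 and 794 CPM, a log2 change of 3.16 ± 0.20. Its second gene under that symbol (ENSDARG00000052138) went from 19.1, 20.2 and 22.4 CPM in larvae to 0.0892, 0.455 and 0 CPM in brain, so the larval libraries held nearly all of its reads. GLUL (ENSDARG00000099776), glutamine synthetase, rose from 251, 248 and 277 CPM to 1357, 1259.7 and 1328 CPM, while the copy ENSDARG00000100003 changed by -0.35 ± 0.12. The GABA transporter SLC6A11 rose from 157 to 163 CPM to 1073 to 1299 CPM. Its relative slc6a11a had 256 reads over the larval libraries and 1 read over the brain libraries, a ratio of 398 in CPM with a 95% counting interval of 70.8 to 15786. Each of these 3 families thus had a member that was far higher in brain and a member that was not.

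Genes of neurons rose broadly. Of 42 tested genes of neurons in general, 37 were higher and 2 lower, 10 of them higher by more than 4-fold, and the median log2 change was 1.66. SNAP25 (ENSDARG00000020609), part of the complex that fuses synaptic vesicles, stood at 289.8, 289.9 and 304 CPM in larvae and 2944, 3318 and 2879 CPM in brain (log2 change 3.37 ± 0.10), and its copy ENSDARG00000058117 at 108 to 117 CPM and 412 to 441 CPM. Outside that list, the neurofilament gene neff2 went from 85.2, 103 and 122 CPM to 2186, 2124 and 2179 CPM, and map1ab, for a microtubule-associated protein, from 169, 167 and 196 CPM to 2945, 3041 and 2534 CPM. Both exceeded the larval level in every brain library, with log2 changes of 4.39 ± 0.14 and 4.00 ± 0.12. Neurofilament genes within the list ranged from nefla at 3.89 through NEFL at 1.47 to INA (ENSDARG00000011862), which was lower, at -0.91. The RNA-binding proteins of newborn and young neurons changed by less, ELAVL3 from 145 to 159 CPM to 249.9 to 314 CPM and ELAVL4 from 236 to 242 CPM to 419 to 512 CPM. UCHL1, an abundant neuronal ubiquitin hydrolase, rose from 18.4, 17.1 and 18.4 CPM to 131, 128 and 135 CPM, and NDRG4 from 226 to 250.5 CPM to 1308 to 1510.3 CPM. The gene stxbp6l, a relative of a syntaxin-binding protein, was 1 of the most changed genes of all, from 10.5, 9.60 and 11.7 CPM to 1056, 926 and 975 CPM (log2 change 6.54 ± 0.12).

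Synapse and channel genes followed the same direction. Of 54 genes of glutamate synapses, 48 were higher and 4 lower with a median log2 change of 1.43, and of 38 genes of GABA and glycine transmission, 32 were higher and 4 lower with the same median. The vesicular glutamate transporter SLC17A7 (ENSDARG00000016480) rose from 22.9, 21.8 and 21.1 CPM to 126, 121 and 108 CPM. The second gene of that symbol, ENSDARG00000090106, fell from 13.7, 11.9 and 13.1 CPM to 2.81, 2.63 and 2.48 CPM. CAMK2A, a kinase of the postsynaptic density, rose from 31.0, 33.4 and 36.4 CPM to 227, 217 and 222 CPM, and the receptor subunit GRIA2 (ENSDARG00000052765) from 78.9 to 84.7 CPM to 339 to 355 CPM. GABRD, the delta subunit of GABA-A receptors found outside synapses, rose from 57.2, 54.1 and 58.1 CPM to 527, 501 and 420.1 CPM (log2 change 3.09 ± 0.11). A subunit gene went the other way, GABRA6 (ENSDARG00000075058), at 8.71, 10.6 and 8.46 CPM in larvae and 0, 0.304 and 0.0935 CPM in brain.

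Of 68 voltage-gated channel genes, 54 were higher and 7 lower, with a median log2 change of 1.23. The potassium channel KCNA1 (ENSDARG00000062942) rose from 31.8, 31.8 and 36.0 CPM to 171, 176 and 154 CPM. The lower ones included channels known from muscle: CACNA1S (ENSDARG00000042552), the calcium channel of muscle excitation, at 108 to 121 CPM in larvae and 0.708 to 3.51 CPM in brain, and its auxiliary subunit gene cacna2d1a at 114 to 120.2 CPM and 21.7 to 27.4 CPM. Of 33 clustered protocadherins, cell surface proteins that give neurons their identity to one another, 18 were higher and 4 lower, none by more than 4-fold. Over all genes 36.9% were higher and 38.8% lower, and 2.75% and 14.6% were so by more than 4-fold.

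Neuropeptide genes rose with the highest median of the neuronal lists, 1.82, with 30 higher and 1 lower of 40 tested and 10 higher by more than 4-fold. CARTPT (ENSDARG00000045832), a peptide of feeding and reward circuits, stood at 2.16, 1.70 and 2.39 CPM in larvae and 52.4, 49.4 and 51.6 CPM in brain, a log2 change of 4.61 ± 0.12. The brain libraries agreed closely for it and none came near the larval level. The hypothalamic peptides oxt and avp rose with far more spread: oxt, for the fish oxytocin, was at 1.28, 1.48 and 1.84 CPM in larvae and 53.2, 12.9 and 34.5 CPM in brain, and avp, for vasopressin, at 0.472 to 0.739 CPM and 7.49, 1.16 and 3.55 CPM. Brain library 2 was the lowest for both. Without brain library 3 the call for avp was lost (adjusted p = 0.0608), while oxt was still called (adjusted p = 0.0233).

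Other peptides were more even between brain libraries. The gene kiss1, for a peptide of the habenula, went from 0.0798 to 0.540 CPM to 3.83 to 6.31 CPM, NPY, which drives feeding, from 4.51 to 5.40 CPM to 35.9 to 42.2 CPM, and TRH, the releasing hormone of the thyroid axis, from 3.51 to 3.71 CPM to 27.6 to 32.1 CPM. The opioid precursor penka rose from 8.86 to 10.06 CPM to 60.8 to 70.0 CPM. The single member lower in brain, agrp, an appetite peptide of the hypothalamus, had a log2 change of -2.17 and was named after its value was seen.

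Transcription factors that lay out brain regions went both ways, with more of them higher in brain than lower. Of 48 tested, 24 were higher, 10 were lower and 14 were not called, with a median log2 change of 0.39. By more than 4-fold, 6 were higher and 0 lower. The shares over all genes were 36.9% higher and 38.8% lower. The higher ones included genes known from the cerebellum. ZIC1 was at 45.9, 42.5 and 41.8 CPM in larvae and 298, 335 and 274 CPM in brain, and BARHL1 at 10.19, 6.87 and 9.42 CPM and 75.7, 73.0 and 62.9 CPM. CA8, a protein of Purkinje cells, rose from 7.76 to 8.78 CPM to 59.14 to 68.9 CPM, and EOMES (ENSDARG00000104243), a factor of the pallium, from 0.607 to 0.739 CPM to 8.56 to 12.8 CPM. The forebrain factors emx3 and LHX6 were lower, with log2 changes of -3.10 and -2.02. The members were listed as markers of regions, and the count does not measure how large a region was.

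Genes of antigen presentation were also among the largest changes toward brain. Of 29 tested genes of adaptive immunity and antigen presentation, 20 were higher in brain and 2 lower, 9 of them higher by more than 4-fold, with a median log2 change of 1.503. The invariant chain gene cd74a, which guides MHC class II to the vesicles where peptides are loaded, was at 1.89, 2.07 and 1.68 CPM in larvae and 285, 260.4 and 395 CPM in brain, a log2 change of 7.37 ± 0.22. Its copy cd74b rose from 1.89 to 2.15 CPM to 69.2 to 110.4 CPM. The MHC class II chain gene mhc2dab rose from 0.270, 0.148 and 0.399 CPM to 14.3, 12.95 and 23.6 CPM, and b2m, the light chain of MHC class I, from 1.62, 1.99 and 1.52 CPM to 81.4, 81.8 and 112 CPM. In each of these genes the brain libraries lay together, with library 3 the highest.

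Genes that supply those molecules with peptides or regulate them rose by less, from low levels as mhc2dab did. The immunoproteasome gene PSMB8 went from 0.148 to 0.337 CPM to 2.72 to 3.74 CPM and psmb13a from 0.0675 to 0.160 CPM to 1.78 to 3.23 CPM. The class II regulator ciita rose from 0.739 to 1.15 CPM to 4.05 to 5.00 CPM, a log2 change of 2.12 ± 0.24. The class I gene mhc1uba, of neither kind, rose by more than these, with a log2 change of 5.54. It had 3 reads over the larval libraries and 239 over the brain libraries, a ratio of 51.2 with a counting interval of 17.3 to 250.2. The recombination genes RAG1 and RAG2, which assemble antigen receptors in developing lymphocytes, were not called, with log2 changes of 0.13 and 0.02. The 2 genes of the list that were lower were the class I gene mhc1zca, with a log2 change of -1.60, and PLAC8 (ENSDARG00000043729), at 105, 101 and 90.3 CPM in larvae and 0.0446, 0 and 0.327 CPM in brain.

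Of 34 microglia and macrophage genes, 22 were higher and 5 lower with a median log2 change of 1.098. The growth factor receptors csf1ra and csf1rb, on which these cells depend, rose from 16.5, 18.2 and 18.6 CPM to 38.2, 34.2 and 41.2 CPM and from 5.94, 6.13 and 6.46 CPM to 24.8, 28.7 and 25.0 CPM. The transcription factor IRF8, which macrophages need to form, rose from 2.70 to 3.32 CPM to 9.09 to 13.8 CPM, and the purine receptor P2RY12 from 0.591 to 1.21 CPM to 1.68 to 2.59 CPM. The apolipoprotein genes went the other way: apoeb, which larval microglia share with the yolk cell, stood at 716, 710.0 and 599 CPM in larvae and 190.5, 137 and 189 CPM in brain, and apoea at 339.7, 323 and 229 CPM and 0.0446, 0 and 0.982 CPM. The perforin-like macrophage gene MPEG1 divided by copy, ENSDARG00000055290 being higher in brain by 1.396 ± 0.21 and ENSDARG00000043093 lower by a log2 change of -4.96 ± 0.30. Of 10 neutrophil genes, 1 was higher, 4 were lower and 5 were not called, a share of lower genes near the 38.8% of all genes. Among all genes 36.9% were higher. The neutrophil gene lyz, for lysozyme, was at 16.6 to 22.6 CPM in larvae and 0.405 to 2.67 CPM in brain.

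**Figure D3:**
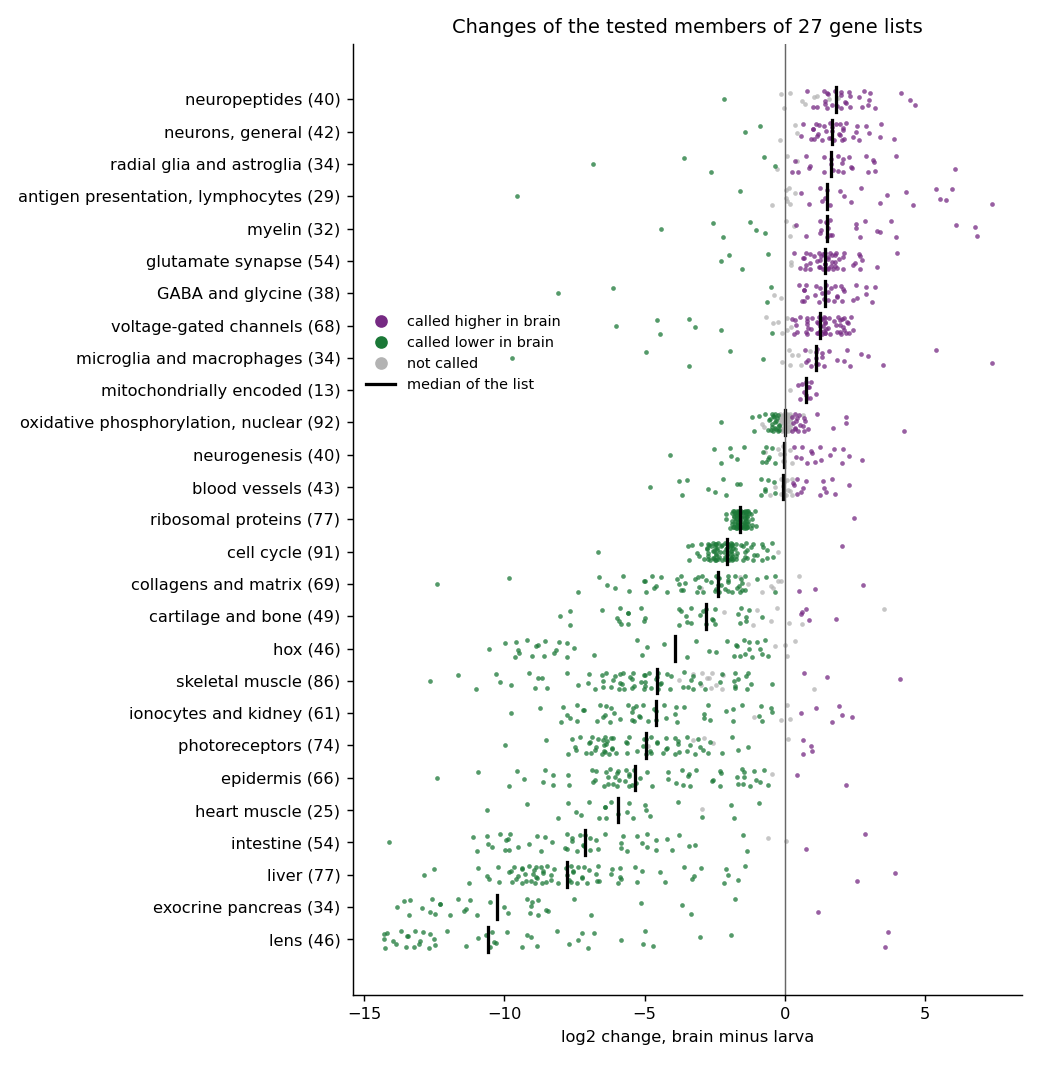
Log2 change, adult brain minus whole larva (horizontal axis), of each tested member of 27 gene lists, ordered by the list's median (black bar), with called genes coloured by direction and the number of tested members in brackets. Medians of the neuron, synapse, channel, myelin, radial glia and peptide lists lie between 1.23 and 1.82, and those of exocrine pancreas and lens lie at -10.26 and -10.6.

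Genes of organs that a brain does not contain were mostly lower in brain. Of 86 skeletal muscle genes, 71 were lower in brain and 3 higher with a median log2 change of -4.58, and 37 were lower by more than 4-fold. The sarcomeric actin gene actc1b stood at 12683, 13149 and 10790.0 CPM in larvae and 47.6, 24.3 and 281 CPM in brain, and the fast myosin myhz1.1 at 7348, 7271 and 7894 CPM and 7.22, 1.32 and 38.2 CPM. Brain library 3 was the highest of the brain libraries in both and still far below the larvae. The calcium buffer pvalb1 was at 4978, 4888 and 6289.9 CPM in larvae and 3.79, 4.098 and 6.13 CPM in brain, a log2 change of -10.17 ± 0.27, and the troponin TNNI2 (ENSDARG00000029069) at 939.9 to 966 CPM and 0.0446 to 0.253 CPM. Without brain library 3, 82 muscle genes were lower, 71 of them by more than 4-fold, so the number of calls rested on that library. The calcium pump atp2a1 was at 5566, 5275 and 5284 CPM in larvae and 18.2, 6.02 and 149 CPM in brain, with a log2 change of -6.54 ± 1.58 with all libraries and -8.77 without the third. Of 25 heart genes, 24 were lower and none higher, 18 by more than 4-fold. Their summed level was also highest in brain library 3, at 193.6, 123.1 and 1699 CPM in brain. Without brain library 3, 26 heart genes were tested and 26 were lower, 23 of them by more than 4-fold.

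Genes of the digestive organs were lower in brain by large factors. Of 34 exocrine pancreas genes, 33 were lower, 32 by more than 4-fold, and the median log2 change was -10.26. Of the 35 matched pancreas genes, tested or not, 6 had no read in brain, and those tested could not have come out higher there. The trypsin gene prss1 was at 1479, 1314 and 1206 CPM in larvae and 1.20, 1.32 and 1.36 CPM in brain, and the carboxypeptidase CPB1 at 864, 787 and 742 CPM and 0.535, 0.556 and 0.514 CPM. Of 77 liver genes, 75 were lower and 2 higher, and of the 87 matched, tested or not, 7 had no read in brain. The lipoprotein gene apobb.1, which also serves the yolk, was at 6655, 6767 and 6149 CPM in larvae and 4.01, 2.48 and 5.84 CPM in brain, and fabp10a, the liver fatty acid binding protein, at 267, 258 and 229 CPM and 0.357, 0.253 and 0.888 CPM. Transferrin, tfa, fell from 722 to 933 CPM to 2.33 to 6.06 CPM. The 2 liver genes higher in brain were CP, for the copper oxidase ceruloplasmin, at 59.05 to 84.3 CPM in larvae and 606, 345 and 308 CPM in brain, and sult2st3, a steroid sulfotransferase, at 3.64 to 4.36 CPM and 49.8 to 66.9 CPM. TTR, for transthyretin, the carrier of thyroid hormone, was at 41.3 to 42.3 CPM in larvae and had no read in brain, at least 887-fold lower against a floor of 3 reads over the group.

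Of 54 intestine genes, 50 were lower and 2 higher, with a median log2 change of -7.14. Of the 56 matched, tested or not, 4 had no read in brain. FABP6, the bile acid binding protein of the distal gut, was at 138, 106 and 142 CPM in larvae with no read in brain, at least 2719-fold lower, and FABP2, of the absorptive cells, at 392 to 471 CPM and 11.5 to 16.4 CPM. Skin gave a like picture, with 63 lower and 2 higher of 66 epidermis genes. The keratin genes krt4 and krt5 stood at 6549, 6143 and 6195 CPM and at 1049, 982 and 1013 CPM in larvae, and at 22.6, 16.7 and 51.2 CPM and 15.6, 14.3 and 19.4 CPM in brain. The larval keratin gene cyt1 was at 332 to 386 CPM in larvae and 0.140 to 0.202 CPM in brain. Ionocyte and kidney genes, 61 in all, had 51 lower and 6 higher, beside 38.8% lower and 36.9% higher of all genes.

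Genes of the eye were lower in brain as well. Of 46 lens genes, 44 were lower in brain, 43 by more than 4-fold, with a median log2 change of -10.6. Of the 56 matched lens genes, tested or not, 16 had no read in brain. Those of them that were tested could not have come out higher in brain. The crystallin gene crygm2d15 was at 204, 200.2 and 195 CPM in larvae with no read in brain, at least 4241-fold lower, and the lens water channel MIP (ENSDARG00000013963) was at least 2008-fold lower. CRYAA, a small heat shock crystallin, was at 38.9 to 49.6 CPM in larvae and 0.0446 to 0.140 CPM in brain. The 2 lens-list genes higher in brain were CRYAB (ENSDARG00000101380), a stress-induced chaperone that glia also make, at 0.886 to 2.56 CPM and 15.6 to 25.9 CPM, and lim2.2, at 0.559 to 0.810 CPM and 7.57 to 9.14 CPM.

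Of 74 photoreceptor genes, 65 were lower and 4 higher, 41 lower by more than 4-fold. The short-wave opsin OPN1SW was at 1624, 1646 and 1633 CPM in larvae and 0, 13.3 and 0.140 CPM in brain. With all libraries its log2 change was -8.54 ± 2.104 (adjusted p = 0.0192) and without brain library 2 it was -14.39. The transducins GNAT1 and GNAT2, of rods and cones, were also highest in brain library 2, at 0.178, 16.9 and 0.608 CPM and at 1.03, 17.3 and 0.888 CPM. GNAT1 was not called with all libraries (log2 change -3.29 ± 1.39, adjusted p = 0.0918) and was at -7.15 without brain library 2 (adjusted p = 4.38e-08). Without that library 69 photoreceptor genes were lower, 64 of them by more than 4-fold. Reads of rod and cone genes thus rose together in 1 brain library.

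Skeleton, fins and ear completed the larval side. Of 49 cartilage and bone genes, 36 were lower and 5 higher, and of 69 collagen and matrix genes, 57 were lower and 3 higher, and these counts were 40 and 63 lower without brain library 3. MATN1, of the cartilage matrix, was at 209, 237 and 204 CPM in larvae and 3.03, 2.02 and 8.14 CPM in brain. The actinodin gene and1, a fibre protein of the larval fin fold known from fish, was at 214, 210.1 and 174 CPM in larvae and 3.43, 2.58 and 2.81 CPM in brain, and its relative and2 had 3 reads over the brain libraries against 11990 over the larval ones. Of 32 genes of hair cells and the ear, 22 were lower and 4 higher, led by OTOF (ENSDARG00000020581), the calcium sensor of hair cell synapses, at 37.6, 38.6 and 37.6 CPM in larvae and 0.490, 0.304 and 0.187 CPM in brain.

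The Hox genes, which give the trunk its order from head to tail, divided by their number. Of 46 tested, 42 were lower in brain, none was higher and 27 were lower by more than 4-fold, with a median log2 change of -3.92. All 21 tested members of groups 9 to 13, which pattern the trunk and tail, were lower by more than 4-fold, and 14 of them had no read in brain. Those 14 passed the count filter only through their larval reads, so they could not have come out higher in brain. Of these, hoxa10b was at 10.7, 9.08 and 12.8 CPM in larvae, at least 229-fold above brain, and hoxa9b and HOXD10 were at least 154-fold and 109-fold lower in brain. Of the 25 members of groups 1 to 8, some of which the hindbrain also uses, 21 were lower and 4 were not called. HOXB5 had log2 changes of 0.05 (ENSDARG00000013057) and 0.00 (ENSDARG00000054030) that were not called, HOXB3 and HOXA3 had changes of -1.27 and -1.43, and HOXC6 (ENSDARG00000101954) had -5.28.

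Genes of growth and division were lower in brain almost without exception. Of 91 cell cycle genes, 89 were lower, 1 was higher and 28 were lower by more than 4-fold, with a median log2 change of -2.07. The replication licensing genes MCM4 and MCM5 went from 100.1, 102 and 82.99 CPM to 9.36, 6.78 and 10.19 CPM and from 85.0, 84.4 and 71.3 CPM to 8.07, 4.86 and 11.2 CPM. The proliferation antigen mki67 had a log2 change of -2.88, and the kinetochore motor cenpe went from 48.0 to 52.2 CPM to 7.99 to 10.08 CPM. The cyclin CCND1, which starts the cycle and is also made by neural progenitors, fell by less, from 129, 129 and 135 CPM to 36.3, 34.9 and 37.9 CPM. The higher member was STMN1 (ENSDARG00000033655), a tubulin-binding protein that neurons make in quantity, from 296 to 370.1 CPM to 1309.5 to 1349.8 CPM.

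Of 77 ribosomal protein genes, 76 were lower and 1 higher, with a median log2 change of -1.59. None was lower by more than 4-fold, and the 1 higher gene exceeded 4-fold. They took 4.77% to 5.04% of the reads in larvae and 1.48% to 1.798% in brain. RPL28 moved from 371, 366 and 371 CPM to 109.7, 104 and 113 CPM and rps27a from 814, 824 and 843 CPM to 233, 222 and 249.8 CPM. The elongation factors moved apart: eef1a1l1 went from 6910.0, 6659 and 6616 CPM to 1422, 1148 and 1547 CPM, while eef1a2, the form used by mature neurons and muscle in mammals, went from 1.48, 1.33 and 1.76 CPM to 106, 99.0 and 100.4 CPM. The brain gain of eef1a2 was 6.06 ± 0.11 on the log2 scale.

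A pair of genes known from immature tissue were lower in brain. HMGA2, a chromatin protein of growing embryos, was at 56.9, 62.1 and 52.9 CPM in larvae and 1.03, 0.911 and 1.12 CPM in brain. IGF2BP3, an RNA-binding protein of fetal tissue, was at 124, 132 and 129 CPM and 7.85, 6.88 and 7.39 CPM. Of 40 neurogenesis genes, 16 were higher and 15 lower with a median log2 change of -0.05, shares near the 36.9% and 38.8% of all genes. The factor NEUROD4, also used by the larval retina, fell from 30.6, 30.1 and 30.5 CPM to 2.095, 1.87 and 1.26 CPM, and the Notch ligand dlc from 38.3 to 40.1 CPM to 7.29 to 9.12 CPM. NEUROD2, of maturing excitatory neurons, rose from 6.01, 6.06 and 6.86 CPM to 28.3, 31.6 and 31.0 CPM, and her4.1, a Notch target of radial glia, from 2.02 to 3.35 CPM to 7.39 to 15.2 CPM. Of 58 genes of developmental signalling pathways, 41 were lower and 10 higher, beside the 38.8% and 36.9% of all genes.

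Energy metabolism showed an exchange of gene copies rather than a shared direction. In creatine kinase, which buffers ATP, the muscle genes ckma and ckmb went from 3249.7, 2964 and 3058 CPM to 16.9, 10.27 and 174 CPM and from 2709.7, 2709 and 2503 CPM to 16.6, 11.4 and 152 CPM. CKB (ENSDARG00000043257), the brain form, went from 868, 823 and 820.0 CPM to 1864, 1625 and 1789 CPM, and the other gene under that symbol, ENSDARG00000069752, fell from 85.4 to 88.3 CPM to 10.6 to 20.9 CPM. The ckma and ckmb calls beyond 4-fold needed brain library 3 to be left out (adjusted p = 1.88e-07 and 7.92e-10 without it, 0.132 and 0.113 with it).

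In aldolase the brain gene ALDOC (ENSDARG00000057661) went from 13.5, 12.999 and 13.9 CPM to 228, 197 and 252 CPM. The second ALDOC gene, ENSDARG00000019702, rose from 333 to 358 CPM to 1709 to 1782 CPM. ALDOA (ENSDARG00000034470) fell from 279, 288 and 269 CPM to 6.29, 3.90 and 25.8 CPM, with brain library 3 the highest of the brain libraries (log2 change -4.53 ± 0.85). The other gene of that symbol, ENSDARG00000011665, did not differ beyond its spread, at 353, 372 and 318 CPM and 331, 328 and 385 CPM, with a log2 change of 0.00 ± 0.10 whose sign depended on the scaling. The enolase of neurons, eno2, rose from 107 to 111 CPM to 439 to 473 CPM while ENO3, of muscle, went from 529.6 to 562 CPM to 35.1, 22.1 and 103 CPM. GAPDHS rose from 530.3, 538 and 463 CPM to 1434, 1344 and 1389 CPM, and GAPDH was at 1315, 1231 and 1134 CPM in larvae and 32.6, 12.3 and 334 CPM in brain. GAPDH was not called with all libraries (log2 change -3.28 ± 1.44, adjusted p = 0.0999) and was at -5.75 without brain library 3 (adjusted p = 0.00196).

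Pyruvate kinase and glycogen phosphorylase each had a rising and a falling copy as well. PKM (ENSDARG00000099730), pyruvate kinase, rose from 269 to 280.1 CPM to 641 to 738 CPM and the gene ENSDARG00000099860 fell from 319.9 to 415 CPM to 1.96, 0.860 and 20.5 CPM. PYGM (ENSDARG00000013317), glycogen phosphorylase, rose from 157 to 159 CPM to 413 to 476 CPM and ENSDARG00000055518 fell from 90.2 to 117 CPM to 2.32, 1.01 and 20.8 CPM. In both falling genes brain library 3 was the highest brain library. Lactate dehydrogenase changed by little: LDHA changed by -0.24 ± 0.11 (adjusted p = 0.0737) and LDHB by 0.24 ± 0.08.

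**Figure D4:**
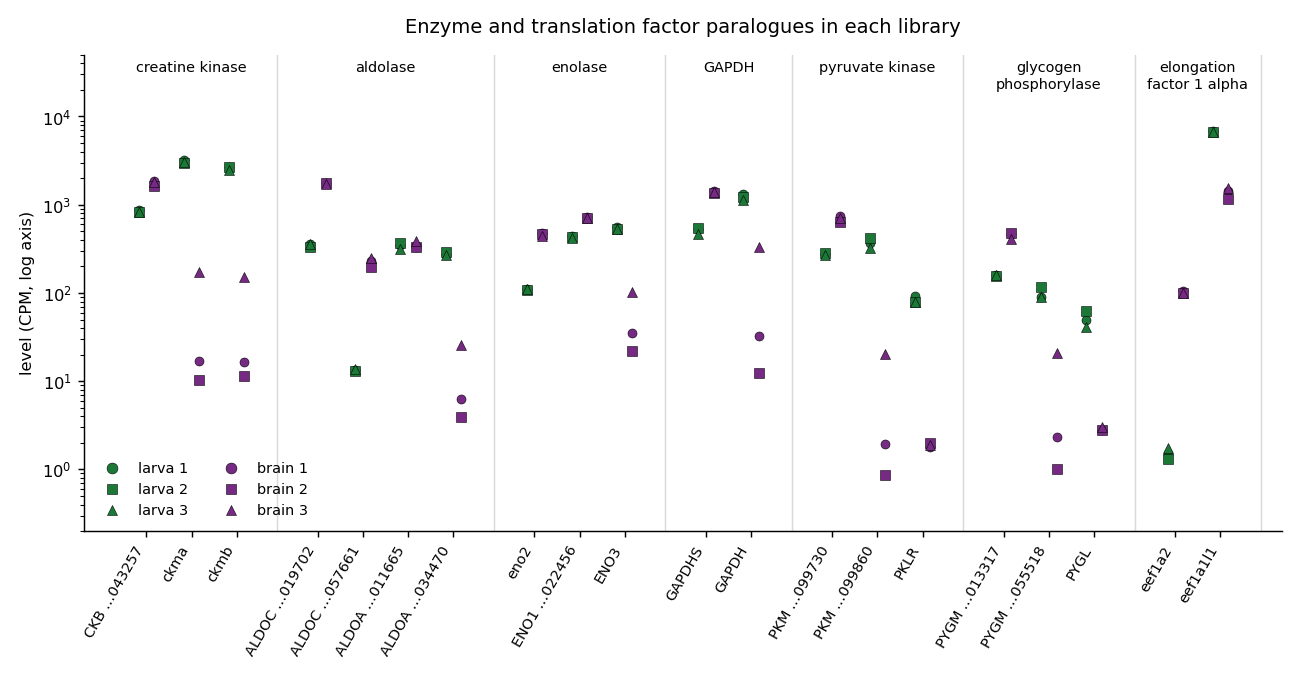
Level of gene copies of the same family (CPM, log scale) in each of the 3 DMSO larval (green) and 3 DMSO brain (purple) libraries, for metabolic enzymes and elongation factor 1 alpha, with a mark shape for each library number. Within each family a copy with more reads in brain stands beside copies with more reads in larvae, and brain library 3 (triangle) lies above the other brain libraries for ckma, ckmb, ALDOA (ENSDARG00000034470), ENO3 and GAPDH.

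The sodium pump, which restores ion gradients after firing, showed the same exchange. The neuronal subunits atp1a3a and atp1a3b rose from 181, 185 and 171 CPM to 1239, 1285 and 824 CPM and from 170.1, 163 and 169 CPM to 1487, 1326 and 1224 CPM. Of 2 ATP1B1 genes, ENSDARG00000076833 rose from 110.0 to 124 CPM to 419.5 to 467 CPM and ENSDARG00000013144 fell from 465 to 533 CPM to 82.8 to 105 CPM. In the 16 pump genes 8 were higher and 7 lower, shares above the 36.9% and 38.8% of all genes.

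Nuclear genes of oxidative phosphorylation had no direction in common, with 21 higher and 26 lower of 92, 45 not called and a median log2 change of 0.01. Both shares lay below the 36.9% higher and 38.8% lower of all genes, of which 5237 of 21546 were not called. Here too copies crossed: ndufa4b rose from 58.8 to 65.2 CPM to 274 to 294 CPM and NDUFA4 fell from 141 to 153 CPM to 64.4 to 71.7 CPM, and SDHD (ENSDARG00000055712) rose from 1.08 to 1.70 CPM to 28.01 to 28.4 CPM. Of 13 genes encoded in the mitochondrial genome, 12 were higher and none lower, with a median log2 change of 0.75, and they took 2.22% to 2.34% of the reads in larvae and 3.32% to 4.37% in brain. MT-CO1, a subunit of cytochrome oxidase, was at 8866, 8389 and 9091 CPM in larvae and 14592, 16487 and 16680.0 CPM in brain.

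Globins changed over from embryonic to adult genes, a switch known in fish as in mammals. The adult alpha globin gene hbaa1 had 0.0675, 0.295 and 0 CPM in larvae and 162, 93.7 and 99.0 CPM in brain, a log2 change of 9.84 ± 0.55. Its neighbour in the family hbaa2 had no larval read and 9.94, 3.54 and 6.36 CPM in brain, at least 92.0-fold higher. Among the genes that carry the symbol HBE1, 3 were higher in the brain libraries. ENSDARG00000089087 had 3 reads over the larval libraries and 466, 276 and 285 CPM in brain, a ratio of 4716 with a counting interval of 1614 to 22872. ENSDARG00000097238 was at 0 to 0.0798 CPM and 47.5 to 81.0 CPM, and ENSDARG00000069734 was at least 164-fold higher in brain.

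The embryonic genes ran the other way. The gene hbae3 was at 335, 285 and 201 CPM in larvae and 0.134, 0.152 and 0.140 CPM in brain, a log2 change of -10.85 ± 0.31. HBE1 (ENSDARG00000045143) had 134, 127 and 66.6 CPM in larvae and 1 read over the brain libraries, and hbae1.3 and HBE1 (ENSDARG00000087390) were at least 1165-fold and 464-fold lower in brain. The embryonic gene hbae4 was low in both, at 0.718 to 1.55 CPM and 1.52 to 1.96 CPM, and was not called (adjusted p = 0.117). Larval library 3 had the lowest larval level for each embryonic gene named here, and brain library 1 the highest level for each adult one. The heme synthesis gene alas2, a marker of red cell precursors, was at 35.5, 26.3 and 16.998 CPM in larvae and 49.3, 24.9 and 25.4 CPM in brain and was not called (adjusted p = 0.488), and of 22 erythroid genes 12 were lower and 6 higher. Of all genes, 38.8% were lower and 36.9% higher. Whether the brains were cleared of blood is not given in the sources used here.

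**Figure D5:**
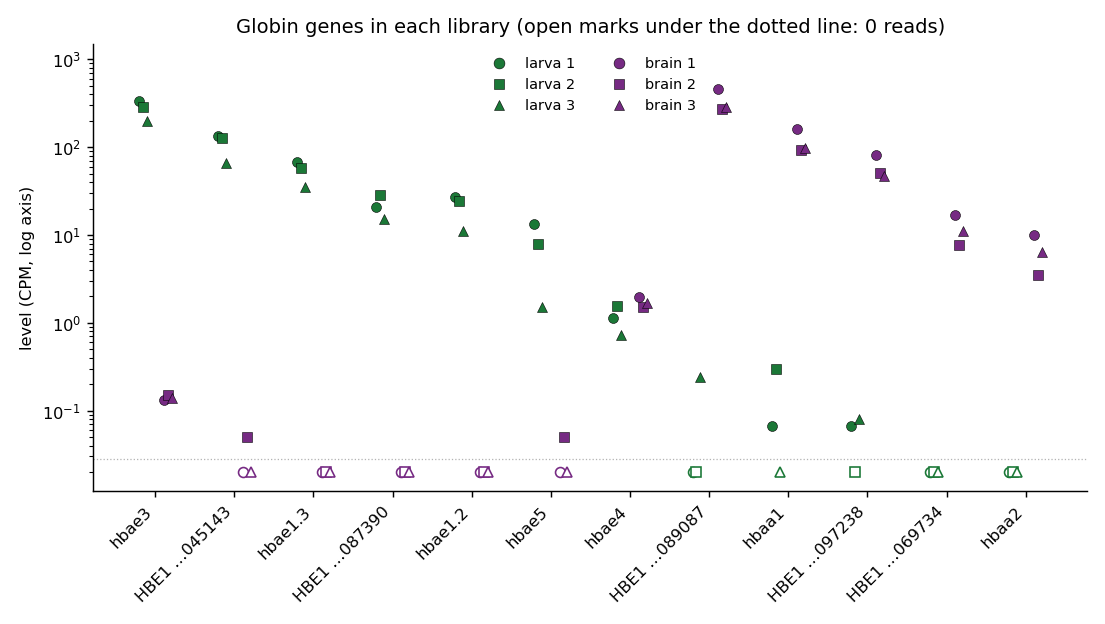
Level of 12 globin genes in the 3 DMSO larval (green) and 3 DMSO brain (purple) libraries (CPM, log scale), with open marks under the dotted line for 0 reads. Adult genes such as hbaa1 lie high in brain and at or near 0 in larvae, and embryonic genes such as hbae3 lie the reverse.

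Among hormone systems, 4 of the 15 thyroid genes were higher and 8 lower. DIO2, an enzyme that forms the active thyroid hormone inside the brain, was at 1.55, 1.11 and 0.559 CPM in larvae and 106, 90.8 and 105 CPM in brain, a log2 change of 6.51 ± 0.21. The iodide transporter SLC5A5 rose from 0.405 to 0.638 CPM to 6.36 to 7.67 CPM, and the receptor THRB from 47.4 to 49.2 CPM to 93.4 to 98.3 CPM. Both genes of the receptor THRA were lower, with log2 changes of -0.57 (ENSDARG00000000151) and -1.26 (ENSDARG00000052654), as were DIO1, another deiodinase, at -2.43 and TG, for thyroglobulin, at -3.68. KLF9, a target of thyroid hormone and of glucocorticoids, went from 117, 112 and 135 CPM to 12.1, 7.49 and 5.00 CPM. The estrogen receptor ESR1 rose from 0.270, 0.369 and 0.798 CPM to 4.77, 4.30 and 3.79 CPM. Of 17 genes of steroid synthesis and action, 9 were lower and 7 higher. Beside both hormone lists stand the 38.8% lower and 36.9% higher of all genes.

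Genes of the aryl hydrocarbon receptor pathway, the target of the compound studied in the exposed fish, were mostly lower in the brains of DMSO fish. Of 21 tested, 14 were lower and 5 higher, beside 38.8% lower and 36.9% higher of all genes. CYP1A1, its classic induced enzyme, was at 29.3, 27.2 and 30.2 CPM in larvae and 0.490, 0.961 and 2.38 CPM in brain. CYP1B1 was the reverse, at 5.67, 6.06 and 5.67 CPM and 24.2, 22.2 and 27.6 CPM. The detoxifying enzyme gstp1.1 went from 7.82 to 9.53 CPM to 0.0506 to 0.0935 CPM.

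Of 39 clock genes, 13 were higher, 12 lower and 14 not called, and the hour of sampling is not given. NR1D1, a repressor of the clock, was at 92.2, 74.5 and 78.1 CPM in larvae and 11.7, 13.9 and 17.4 CPM in brain. Of 30 genes that neurons switch on with activity, 9 were called in each direction. The shares in both lists lay somewhat below the 36.9% and 38.8% of all genes that were higher and lower. The early gene egr1 rose from 24.4 to 27.8 CPM to 51.2, 50.4 and 80.2 CPM, and NR4A1 fell from 49.8 to 51.1 CPM to 1.92, 1.67 and 12.3 CPM. CCN2, a matrix-linked early gene, fell from 69.3 to 89.5 CPM to 4.01 to 12.7 CPM. Brain library 3 was the highest brain library for all 3 genes, and without it 14 activity genes were lower and 10 higher.

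Small structured RNAs took a larger share of reads in brain, and RNA purification differed between the ages. The 1097 annotated genes of spliceosomal, nucleolar, Y, signal recognition particle and microRNA precursors took 4.62% to 4.97% of the reads in larvae and 9.29% to 11.9% in brain. Among them rn7sk, a regulator of transcription elongation, was at 11540.0, 10796 and 9954 CPM in larvae and 19360.0, 18901 and 19740.0 CPM in brain. Of the 88 that were tested, 32 were higher and 24 lower, a share of higher genes near the 36.9% of all genes. Y_RNA (ENSDARG00000100903) rose from 102, 89.4 and 42.9 CPM to 859.8, 580.1 and 553 CPM and SNORA74 (ENSDARG00000082930), a guide of ribosomal RNA modification, from 1.20 to 2.51 CPM to 21.4 to 23.5 CPM. The part of the purification method in these values was not tested.

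The 4 microRNA precursors given here, each with few reads, were chosen after their values were seen. The muscle precursor MIR206 (ENSDARG00000081661) had 0.718 to 1.11 CPM in larvae and no read in brain, at least 18.1-fold lower, and mir192, of gut and liver, 0.958 to 1.77 CPM and none, at least 26.4-fold lower. The precursors mirlet7a-5 and mirlet7a-3, of a family known to rise as tissues mature, were higher in brain. The first had no larval read and 0.748 to 0.809 CPM in brain, at least 10.7-fold higher, and the second went from 0.148 to 0.399 CPM to 2.81 to 3.04 CPM.

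A handful of genes varied widely between brain libraries. The pituitary hormone genes were read mainly in brain library 3: gh1, growth hormone, at 12.9, 11.6 and 17.8 CPM in larvae and 6.55, 3.14 and 93.3 CPM in brain, POMC at 4.12, 4.28 and 4.15 CPM and 1.78, 0.405 and 34.8 CPM, and CGA (ENSDARG00000040479), the shared hormone subunit, at 0.960 to 1.52 CPM and 5.08, 10.8 and 126 CPM. None of these was called with all libraries (adjusted p = 0.46, 0.437 and 0.0613). Without brain library 3 gh1 and POMC were lower in brain, with log2 changes of -1.51 and -1.88, and CGA was higher by 2.61. The gonadotropin subunit lhb was at 4.15, 8.499 and 100.1 CPM in brain with 2 reads over the larval libraries.

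Other genes with the widest brain spread were not pituitary genes. SNORA23 was at 36.0, 30.9 and 16.04 CPM in larvae and 0.802, 0.354 and 69.7 CPM in brain, and selenol, a selenoprotein gene, at 5.60 to 7.83 CPM and 0.0892, 11.7 and 25.3 CPM. The matrix gene COL10A1 (ENSDARG00000101535), of bone-forming tissue, was at 1.04 to 2.63 CPM in larvae and 8.34, 1.92 and 56.7 CPM in brain. None of the 3 was called (adjusted p = 0.914, 0.56 and 0.108).

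The comparison was repeated in fish exposed to PCB126 as embryos, whose larval and brain libraries are separate from the DMSO ones. Of the 592 genes that marked brain in DMSO fish, 463 (78.2%) also exceeded 4-fold toward brain at 0.3 nM and 496 (83.8%) at 1.2 nM, which is 63.6% of the 728 and 65.3% of the 760 genes called there. Those 728 and 760 genes were 3.4% and 3.53% of the genes tested at these doses, where 78.8% and 79.4% passed an adjusted p of 0.05 in either direction. Of the 3143 larval marks, 2926 (93.1%) and 2979 (94.8%) were found again, which is 80.8% of 3621 and 77.7% of 3834, against a background of 16.9% and 17.8%. Where a brain mark could be tested in exposed fish it kept its sign in 579 of 580 cases at 0.3 nM and 582 of 582 at 1.2 nM. For mbpa, cd74a and eef1a2 the log2 changes were 6.75, 7.37 and 6.06 in DMSO fish, 5.96, 6.75 and 5.32 at 0.3 nM and 6.06, 6.77 and 5.35 at 1.2 nM. The interaction of dose with the difference between brain and larva was not called for these 3 genes at either dose. It was called for 5.71% of 22545 genes at 0.3 nM and 1.49% at 1.2 nM.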

How the data were processed

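The authors deposited raw read counts, 1 whole number for each of 32105 Ensembl genes in a library. Per the submitters' processing notes they come from FastQC, STAR, HTSeq and edgeR with GRCz10. Their versions and the release of the annotation were not in the sources used here. Per the labels' protocols, total RNA libraries depleted of ribosomal RNA were read from a single end with strand kept, and per the deposited files' own names counting was on the reverse strand in union mode. Reads shared by near-identical copies (crystallins, trypsins, myosins, keratins, globins, MHC genes) may therefore be split or lost, and values of single copies of such families are uncertain.

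The count test was that of edgeR 4.0.16 with limma 3.58.1 under R 4.3.3: filterByExpr, TMM scaling (factors 0.9751 to 1.0145) and the robust quasi-likelihood test on the 6 libraries with group as the only term, Benjamini-Hochberg adjustment over 21546 genes, and calls at an adjusted p under 0.05. The test against a 4-fold change used glmTreat at a log2 threshold of 2 on the same fit. The common biological coefficient of variation was 0.146. Standard errors are the log2 change divided by the root of its F. A fold against a group without reads uses a floor of 3 reads over that group, and ratios with 1 to 3 reads carry an exact 95% interval; both cover counting error only. The interaction of dose with the difference between brain and larva came from 1 fit of all 24 libraries. The procedure was tested on simulated data.

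Symbols matched 26269 of the genes, taken from a names table of another assembly, so no coordinates or sequences are given; capitals mark the symbol of a mammalian ortholog. Lists hold 1671 matched of 1789 entries. Genes were named by a rule: the 10 largest changes and the 10 with most reads each way, up to 4 of each list by smallest p, all members of paralogue families, up to 6 each way without reads in a group, markers, and the widest brain spread, from which those described were picked. Others, mostly exceptions within a list and members of known role, were chosen after their values were seen, among them oxt, avp, NPY, kiss1, ciita, mhc2dab, mhc1uba, IRF8, apoea, KLF9, ESR1, CYP1A1, egr1, NR4A1, CCN2, her4.1, the Hox genes, MCM4, MCM5, agrp, mhc1zca, NEFL, nefla, INA, THRA, DIO1, TG and the microRNA precursors. Some genes are not reported here. The members and lists were chosen with earlier results of these data known. Alternatives covered scaling, the filter, the robust fit, a replicate block, all 24 libraries in 1 fit, DESeq2 1.42.0, fold thresholds and leaving out each library.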

Additional observations from a re-analysis of the deposited data

Results flagged for a closer look

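For 19 of the 176 genes described, the difference between brain and larva was not the same in fish exposed to 0.3 nM PCB126 as in DMSO fish, by the interaction term of 1 fit of all 24 libraries with Benjamini-Hochberg adjustment; for 10 genes this held at 1.2 nM. Over all 22545 genes of that fit the term was called for 5.71% at 0.3 nM and 1.49% at 1.2 nM. The genes described were picked for their changes and levels, so nothing particular to them is read from these counts. Values are the log2 difference in exposed fish minus that in DMSO fish. At 0.3 nM brain gained less over larva for epd (-1.077), GJA1 (-0.6836), penka (-0.6414), stxbp6l (-0.6375), csf1ra (-0.5097), GAPDHS (-0.486), UCHL1 (-0.4673) and ALDOC (ENSDARG00000019702, -0.4601). GFAP (-0.7943) went from 0.36 in DMSO fish to -0.4448 at that dose. The difference was negative in DMSO fish and more so at that dose for fabp10a (-3.066), MATN1 (-2.597), CKB (ENSDARG00000069752, -1.099), PMP22 (-1.037), GLUL (ENSDARG00000100003, -1.021), NDUFA4 (-0.5219) and ATP1B1 (ENSDARG00000013144, -0.4321). The value was positive for ciita (1.628), IGF2BP3 (0.6737) and ELAVL3 (0.5738).

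At 1.2 nM the difference was larger toward larva for CYP1A1 (-5.17), fabp10a (-3.356), apobb.1 (-2.588), krt5 (-1.298), PMP22 (-1.218) and rps27a (-0.5797). CYP1B1 (-2.16) went from 2.09 in DMSO fish to -0.08673. The difference was smaller toward brain for csf1ra (-0.6718) and stxbp6l (-0.6279), and the value was positive for HMGA2 (0.9068). Of these genes fabp10a, PMP22, csf1ra and stxbp6l were called at both doses, with the same sign. The 2 doses share the DMSO libraries. A change in brain or in larva can give such a value, and the part of each was not tested here.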

How the results depend on the processing

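Numbers of called genes kept within 1.5 times under every alternative scaling, filter and tool. Moving the fold threshold moved the marks: at log2 1 there were 8192 (2984 higher and 5208 lower) and at log2 3 there were 2051 (122 and 1929). Leaving out each library gave 15282 to 16691 calls (7367 to 8101 higher, 7915 to 8590 lower) and 3399 to 4100 marks (519 to 659 higher, 2880 to 3441 lower). DESeq2 gave 413 brain and 2692 larval marks. The scaling that moved the median log2 change of all genes most, upper quartile, shifted it by -0.0866.

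Same-numbered larval and brain libraries did not deviate together (correlations -0.0118 to 0.00382), so the numbers were not taken as pairs. With a replicate block 7700 genes were higher and 8094 lower (15794 in all), and 568 and 2933 exceeded 4-fold (3501). The block ended the calls of NR4A1, LDHB, OPN1SW, PYGM (ENSDARG00000055518) and PKM (ENSDARG00000099860) and turned gh1 to -0.01152.

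The sign of ALDOA (ENSDARG00000011665) became negative with RLE (-0.02753), upper quartile (-0.08395), library totals (-0.002125) and DESeq2 (-0.01421), and without larva 3 (-0.05546) or brain 3, and leaving out each library gave -0.06457 to 0.05345. Without brain 3 the sign turned for gh1, POMC and selenol, whose ranges were -1.508 to 1.826, -1.88 to 2.122 and -0.1348 to 1.539. Without brain 1 it turned for alas2, with a range of -0.05764 to 0.6187. SNORA23 turned without larva 1 (0.008835), brain 1 or brain 2 (0.3404), with a range of -5.525 to 0.3411. Their causes were not tested. Some calls among the genes described were lost when single libraries were left out, larval ones included, 8 of them without larval library 1. The genes concerned included ckma, ckmb, PYGM (ENSDARG00000055518), lhb, NR4A1, LDHB and avp, and this list is not complete. With 3 libraries a group, genes with a wide brain spread can miss the threshold at large changes, and genes with few reads are limited by counting error.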
